A study of Bos taurus with 16 samples.

Results

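Iron enters cells, is stored and leaves them through a small set of proteins, and 10 genes of this set were followed in RNA from pools of bovine blastocysts by maternal diet and by pool. They are the transporters SLC11A1 and SLC11A2, the transferrin receptor TFRC and its ligand TF, the ferritin subunits FTH1 and FTL, the exporter SLC40A1, the heme-degrading enzyme HMOX1, and the iron regulatory proteins IREB2 and ACO1. They were chosen by gene symbol, 9 of them for their function and SLC11A1 for its reads in control pools and their absence from methionine-rich pools. The symbols stood for 11 of the 22358 loci in the files, because SLC11A2 was listed at 2 loci.

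The embryos came from 8 Holstein cows. The 4 cows of the control treatment and the 4 of the methionine-rich treatment received the same basal diet from calving until embryo collection, and rumen-protected methionine was added to the methionine-rich diet, so the comparison asks whether this supplement changed transcript levels in the embryo. Superovulation, artificial insemination, flushing of the embryos from the uterus and pooling of good or excellent expanded blastocysts were common to both treatments according to the study's methods, whereas the sample labels call the tissue IVF embryos. Each cow gave 2 pools, named here by treatment, cow and pool (C1.1 to C4.2 for control, M5.1 to M8.2 for methionine-rich). Pools held different numbers of blastocysts, more in most methionine-rich pools than in control pools, so that this number and the diet cannot be fully told apart. The study's RNA quality numbers were lower in most methionine-rich pools than in any control pool with a value. RNA quality and diet cannot be fully told apart either. RNA was amplified in several rounds before sequencing, and the sire and sequencing lane of each pool are not given in the sources used here. The pools of 1 cow shared a mother and entered the tests over pools as separate samples. The correlation between pools of a cow, estimated over all loci by limma voom, was 0.0351.

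Total counts ranged from 5624126 to 7826542 over 15 pools, with a median of 7257007. Pool C3.2 had 1745048 counts and was left out of the tests, so that 7 control pools and 8 methionine-rich pools entered them. The study had left this pool out as well. Levels are given as CPM, the counts of a locus divided by the pool total, with all pools brought to an equal sum. A floor of 3 counts, below which a locus cannot be told from absence, lay between 0.383 and 0.533 CPM in these 15 pools and covers counting error only. CPM was not divided by transcript length, and levels are therefore compared between pools but not between genes. Some markers of each blastocyst lineage were read in every pool, while others were not. SOX17 of the hypoblast had no count in any pool, and GATA4 had 0 to 3. CDX2 of the trophectoderm had 203 counts in C3.1 but 0 in C4.1, M8.1 and M8.2 and 1 in C4.2. The sums below rest mostly on KRT18 for the trophectoderm and on GATA6 and PDGFRA for the hypoblast. Over the 15 pools the summed markers of the inner cell mass were between 121 and 238 CPM, those of the trophectoderm between 3075 and 9708 CPM and those of the hypoblast between 94.6 and 336 CPM. In C3.1 the leading markers were POU5F1, DPPA3 and NANOG (410, 326 and 202 counts), KRT18, GATA2 and KRT8 (35857, 6858 and 3631) and GATA6, PDGFRA and HNF4A (642, 361 and 12), while KLF17, LIN28B, TFAP2A, ELF5, IFNT and SOX17 had no count there.

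In most cells ferric iron carried by transferrin (TF) is taken up with its receptor (TFRC) into endosomes, reduced, and moved to the cytosol by SLC11A2, also called DMT1. SLC11A1, also called NRAMP1, is the paralogue of SLC11A2 known from the phagosomes of macrophages and neutrophils, where it removes divalent metals from engulfed microbes. Surplus iron is held in shells of the ferritin heavy (FTH1) and light (FTL) chains, and iron leaves the cell through ferroportin (SLC40A1). IREB2 and ACO1 encode the iron regulatory proteins, which bind RNA hairpins in messages such as those of ferritin and TFRC when iron is low. ACO1 with an iron-sulfur cluster is an aconitase instead.

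SLC11A1 (XLOC_009342) had no count in any of the 8 methionine-rich pools and 374 counts in the 7 control pools. The pools of cow 1 had 0 and 12 counts, those of cow 2 had 1 and 31, and those of cow 4 had 38 and 1. Of cow 3, pool C3.1 had 291 counts and the untested pool C3.2 had 3. So 6 of these 7 control pools had a count, 4 of them over the floor, and 77.8% of all counts of the gene were in C3.1. The mean was 7.48 ± 14.2 CPM (SD, n = 7) in control pools, at least 14.8-fold higher than the highest floor in the methionine-rich pools, 0.505 CPM. Without C3.1 the control mean was 2.20 ± 2.71 CPM (SD, n = 6), at least 4.35-fold higher, and with C3.2 included it was 6.76 ± 13.3 CPM (SD, n = 8). Because this difference between diets chose the gene, it is described and not tested.

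SLC11A1 counts differed between the pools of each control cow. In each control cow 1 pool held between 12 and 291 counts and the other between 0 and 3. Cow means were 0.900, 2.49 and 3.20 CPM in cows 1, 2 and 4, and cow 3, with C3.1 alone, had 39.2 CPM. The means of the 4 control cows therefore did not overlap those of the methionine-rich cows, which were all 0. Cow means did not overlap in either direction at 232 of 10519 loci tested (2.21%) and, with control higher, at 110 (1.05%), and 93 loci (0.884%) had counts in control pools and none in the 8 methionine-rich pools. Restricted to loci with counts in 6 or more control pools, that pattern was found at 11 loci (0.105%). SLC11A1, chosen for this pattern, is in each of these counts by its selection, and 6 is its own number of pools with a count. C2.1 and C4.2, with 1 count each, lie below the floor. The shares are therefore background and no test of the gene. In the opposite direction, 65 loci (0.618%) had counts in methionine-rich pools and none in the 7 control pools.

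SLC11A2, the paralogue, was read in pools of both diets at each of its 2 loci, which lie next to each other in the files. At XLOC_016919 levels had a low of 2.19, a median of 19.5 and a high of 38.9 CPM in the control pools, and a low of 9.20, a median of 21.1 and a high of 53.8 CPM in the methionine-rich pools. All 15 pools were over the floor. Pools C1.2 and C4.2, with 17 counts each, were lowest and M6.1, with 395, was highest. At XLOC_016920 control pools ran from 0.155 through a median of 7.39 to 25.6 CPM and methionine-rich pools from 0 through a median of 2.31 to 29.6 CPM. Here 10 of the 15 pools were over the floor, and the highest counts were 215 in M5.1, 190 in C3.1 and 111 in M6.2. The diets overlapped widely at both loci.

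**Figure D1:**
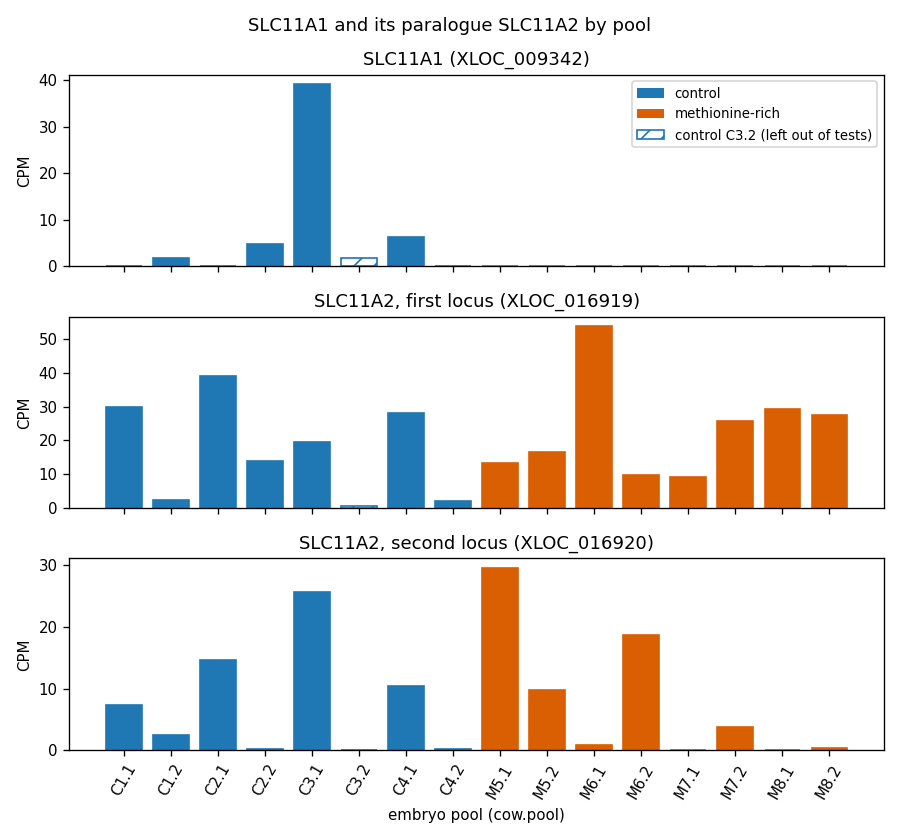
CPM of SLC11A1 and of the 2 SLC11A2 loci (y axes, linear from 0) in each of the 16 pools (x axis), with control pools in blue, methionine-rich pools in orange and C3.2 hatched. SLC11A1 stands at 39.2 CPM in C3.1 and is 0 in every methionine-rich pool, while SLC11A2 is read in pools of both diets.

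The log2 fold change, methionine-rich over control, was 0.23 at XLOC_016919 (edgeR exact test, FDR = 1.0) and -0.41 at XLOC_016920 (FDR = 1.0). With DESeq2 the differences were 0.23 ± 0.60 (SE), with a 95% interval of -0.95 to 1.41, and -0.45 ± 1.17, with an interval of -2.73 to 1.84. The intervals reached beyond 2-fold at both loci. The direction at XLOC_016919 rested on M6.1, without which the log2 fold change was -0.06, and that at XLOC_016920 on C3.1, without which it was 0.13. C3.1, highest for SLC11A1, was at 19.5 CPM for XLOC_016919, which is the control median, and second to M5.1 for XLOC_016920.

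By the Pearson correlation of log2(CPM + 1) over the 15 pools, the loci most like SLC11A1 were TMEM159 (0.90), TRIML1 (0.88), CCDC80 (0.87), CNTN4 (0.83) and RBL1 (0.82). Their counts in C3.1 were 85, 165, 511, 541 and 71, and each of these loci had its highest count in that pool. By Spearman correlation a different list led, NT5C3 (0.96), ITSN2 (0.95), BLA-DQB (0.87), N4BP2 (0.86) and OLFM3 (0.85), and no locus stood in both lists. Like SLC11A1, chosen for this, NT5C3, ITSN2, BLA-DQB and OLFM3 had no count in any methionine-rich pool, and these shared zeros raise the rank correlation. BLA-DQB had 508 counts in C2.1 and 1 in each other tested control pool, and its Pearson correlation was -0.07. For SLC11A2 the most similar loci by Pearson correlation were SPG21 (0.88), TP53INP1 (0.87), TUSC1 (0.86), MUTED (0.84) and CSK (0.83) at XLOC_016919, and DNAJC27 (0.87), SDC2 (0.82), LONRF1 (0.79), C3H1orf54 (0.79) and KLHL15 (0.78) at XLOC_016920. The Spearman list shared 0 of the 5 loci at XLOC_016919 and 2 of the 5 at XLOC_016920. Only tested loci with a gene symbol were ranked. The values given are the highest among those loci and describe pools that share mothers and depth.

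SLC11A1 is best known from myeloid cells, and markers of blood cells were therefore read beside it. Pool C3.1 had 41.4 CPM summed over 14 leukocyte markers, within the 22.7 to 57.6 CPM of the methionine-rich pools. In that pool 7 of them had no count, namely PTPRC (CD45), CD2, CD3D, CD3E, CD79A, CD79B and MS4A1, and the highest were CD48 (172 counts), CD53 (98) and ITGB2 (16). CD48 alone gave 23.2 CPM of the sum and had 83 to 323 counts in the methionine-rich pools, whereas CD53 had 0 to 4 and ITGB2 0 to 2 there, below C3.1. For 13 monocyte, macrophage or neutrophil markers C3.1 had 17.7 CPM, against 4.91 to 26.3 CPM in methionine-rich pools. AIF1, FCER1G, CTSS, S100A8, S100A9, S100A12 and CSF3R had no count in C3.1, and the highest were CD14 (55), SPI1 (40) and CSF1R (24). In the methionine-rich pools CD14 had 0 to 69 counts and CSF1R 5 to 84, and SPI1 had 0 to 11, below C3.1. LAPTM5 and TYROBP, with 5 and 4 counts in C3.1, had none in any methionine-rich pool. The pool richest in leukocyte and myeloid markers, C2.1 with 1589 and 805 CPM (LAPTM5 6969 and TYROBP 2122 counts), had 1 count of SLC11A1. In the remaining pools with SLC11A1 over the floor the leukocyte sums were 31.6 CPM (C1.2), 50.5 CPM (C2.2) and 36.9 CPM (C4.1). The myeloid sums were 38.1 CPM in C1.2 and 27.7 CPM in C2.2, above every methionine-rich pool, and 2.64 CPM in C4.1, below every one.

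Erythroid markers, 14 loci, were highest in C3.1 among control pools at 54.0 CPM, next to 54.0 CPM in M8.2. ALAS2, the erythroid enzyme of heme synthesis, gave 285 counts in C3.1. HBA1 had 2 counts, and 10 of the 14 loci had none in C3.1 (HBA, HBB, HBG, HBM, SLC4A1, GYPC, EPB42, HEMGN, GATA1 and KLF1). Sums over 8 endometrial or oviduct markers were 5.52 CPM in C3.1, with PAX8 (17 counts), MUC1 (13) and WFDC2 (10) highest and PAEP, FOXJ1, ESR1 and PGR at 0, and reached 26.3 CPM in M6.1, which had no SLC11A1 count. Sums over 10 cumulus or granulosa markers were 9.70 CPM in C3.1, with CYP19A1 (43), HSD3B1 (28) and NR5A2 (1) highest and FSHR, CYP11A1, AMH, INHA, FST, HAS2 and FOXL2 at 0, below the 13.9 to 129 CPM of the methionine-rich pools. In these pools of whole embryos, fewer cells of a type and less RNA per cell cannot be told apart. Whether RNA of other cell types had a part in the SLC11A1 counts was not tested.

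**Figure D2:**
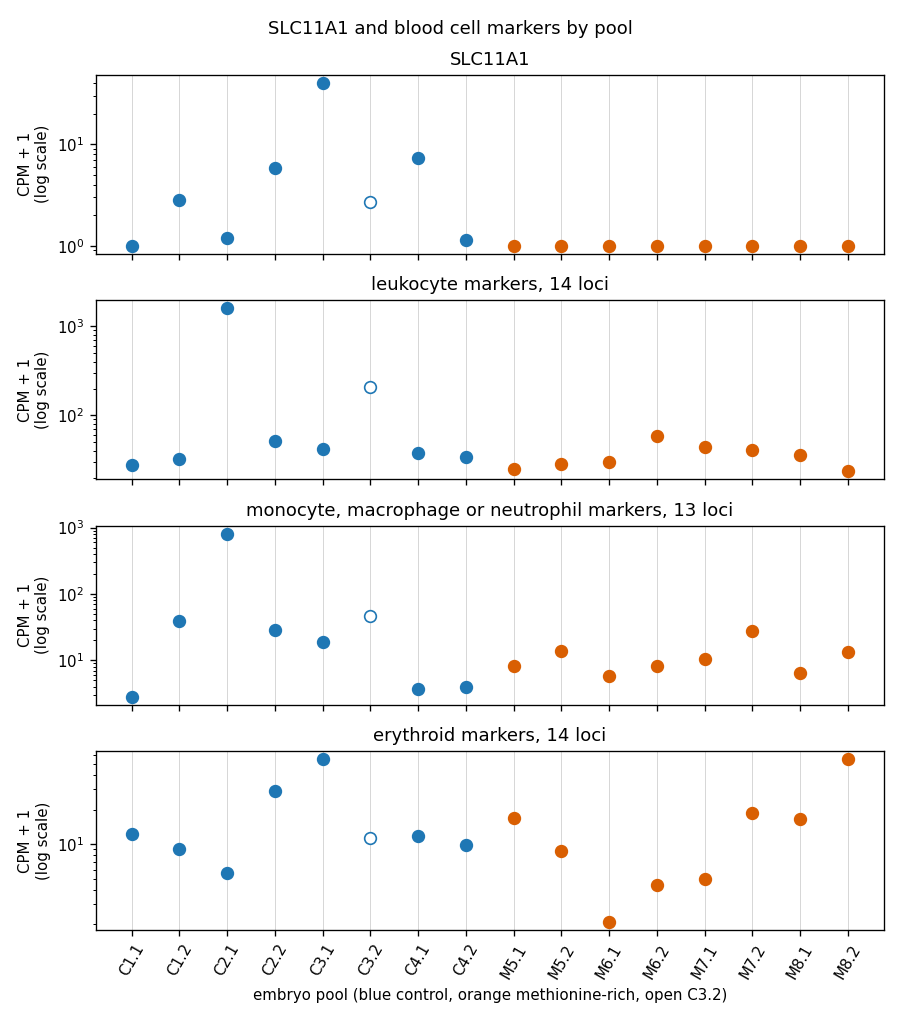
SLC11A1 and the summed CPM of leukocyte, myeloid and erythroid markers (y axes, CPM + 1 on log scales) in the 16 pools (x axis), with control in blue, methionine-rich in orange and C3.2 open. C2.1, highest for leukocyte (1589 CPM) and myeloid (805 CPM) markers, has 1 count of SLC11A1. C3.1, highest for SLC11A1, lies within the range of the methionine-rich pools for both sums, of which the leukocyte sum is largely CD48. CD53, ITGB2 and SPI1 are above every methionine-rich pool in C3.1. For the myeloid sum C1.2 and C2.2, also over the floor for SLC11A1, lie above every methionine-rich pool, and C4.1 lies below every one.

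The genes beside SLC11A1 were read as follows. CTDSP1, a phosphatase gene on one side in both the files and the RefSeq annotation, had 1 count in C3.1 and 299 in C1.1, where SLC11A1 had none. C2H2orf62, on the other side in the files, had no count in any pool, and PNKD beyond it had 254 to 1380 counts in the 15 pools. The highest PNKD count was in C3.1, but M6.2 had 1353 in a smaller pool total (5941973 against 7423716). As a share of the pool PNKD was thus higher in M6.2, which had no SLC11A1 count, than in C3.1.

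Iron uptake from transferrin was represented by TFRC, whereas TF itself was hardly read. TFRC (XLOC_000616) was over the floor in all 15 pools. Control pools ran from 4.37 through a median of 8.55 to 21.7 CPM, and methionine-rich pools from 2.97 through a median of 7.42 to 24.1 CPM. In each diet a single pool stood above the rest, C2.2 with 140 counts and M6.2 with 143, and the remaining pools of both diets lay between 22 and 92 counts. The means were 9.97 ± 5.62 CPM (SD, n = 7) and 9.21 ± 6.73 CPM (SD, n = 8), and the log2 fold change was -0.13 (edgeR exact test, FDR = 1.0; DESeq2 95% interval -1.06 to 0.79). TF (XLOC_000800) had 16 counts in the 15 pools, 8 of them in C4.1 and 4 in M8.2, and did not reach the minimum of 15 summed CPM for a test.

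FTH1 was read in quantity in every pool, whereas FTL was at or near 0 in most. FTH1 (XLOC_014625) took between 0.385% and 1.78% of all counts of a pool. Control pools had a low of 3853, a median of 6347 and a high of 17811 CPM, and methionine-rich pools a low of 4908, a median of 5569 and a high of 8422 CPM. C2.1 with 17811 and C4.2 stood above every methionine-rich pool, and C1.1 and C1.2 below every one. The means were 7950 ± 4828 CPM (SD, n = 7) and 6099 ± 1362 CPM (SD, n = 8), with a log2 fold change of -0.38 (edgeR exact test, FDR = 0.946; DESeq2 95% interval -1.04 to 0.30). Without C2.1, the pool rich in leukocyte markers, the log2 fold change of FTH1 was 0.03. Pool C3.2 had 11377 CPM.

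FTL (XLOC_007044) had 103 counts in C2.2, 9 in C3.1, 2 in C2.1, 1 in C4.1 and none in the remaining 3 control pools. Methionine-rich pools had between 0 and 6 counts. C2.2 alone held 77.4% of the counts, so the means of 2.53 ± 5.93 CPM (SD, n = 7) and 0.330 ± 0.339 CPM (SD, n = 8) and the log2 fold change of -2.64 (edgeR exact test, FDR = 0.688) describe that pool. DESeq2 replaced the 103 counts of C2.2 by 2 as an outlier and gave 0.17 ± 1.49 (SE). Ferritin genes have many processed copies in mammalian genomes, and the study's text describes the reads on exons as uniquely mapped, so that reads matching several copies alike would be missing and the levels of FTH1 and FTL are uncertain. In the files BAX, the neighbour of FTL in the RefSeq annotation, had no count in any pool, while GYS1 on the other side had 8 to 150 counts in the 15 pools at XLOC_007641.

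Export and heme breakdown were at the edge of detection. SLC40A1 (XLOC_009106), the only known cellular iron exporter, was over the floor in 5 of the 15 pools, with 40 counts in C4.1, 15 in C1.1, 13 in C3.1, 15 in M5.1 and 10 in M7.2. The other pools had 0 to 2 counts. Its summed CPM of 15.1 was just above the minimum for the test, and its log2 fold change was -1.66 (edgeR exact test, FDR = 0.925; DESeq2 95% interval -4.73 to 1.31). In C3.2 it had 14 counts, which at the low total of that pool was 8.02 CPM, above every other control pool. HMOX1 (XLOC_017146), which opens the heme ring and frees its iron, had 27 counts in the control pools, with 9 in C2.1 and 8 in C1.1 the highest, and 11 in the methionine-rich pools. It was over the floor in 3 control and 2 methionine-rich pools and, with 5.68 CPM in all, was not tested.

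IREB2 (XLOC_010416) had the smallest spread between pools of the iron genes. Control pools ran from 55.8 through a median of 112 to 169 CPM and methionine-rich pools from 64.1 through a median of 104 to 202 CPM. The highest pools were M5.1 with 1462 counts and C4.2 with 1316. The means were 110 ± 40.9 CPM (SD, n = 7) and 111 ± 42.2 CPM (SD, n = 8), and the log2 fold change was -0.0045 (edgeR exact test, FDR = 1.0). Its DESeq2 95% interval, -0.47 to 0.48, was the narrowest among the tested iron loci and lay within 2-fold, and the sign of the difference changed between ways of processing.

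ACO1 (XLOC_020294), the other iron regulatory protein, varied far more. Control pools ran from 4.80 through a median of 34.5 to 64.8 CPM and methionine-rich pools from 1.45 through a median of 6.06 to 57.1 CPM, a 44.6-fold range over the 15 pools. Of the methionine-rich pools, M7.1 with 447 counts, M6.2 with 282 and M7.2 with 160 were highest, and the other 5 had 11 to 51 counts. In control, C1.2 with 32 counts and C2.2 with 36 were as low. The means were 30.2 ± 20.9 CPM (SD, n = 7) and 18.5 ± 22.2 CPM (SD, n = 8), and the log2 fold change was -0.68 (edgeR exact test, FDR = 0.976; DESeq2 95% interval -2.19 to 0.84). The difference was within the spread between pools.

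**Figure D3:**
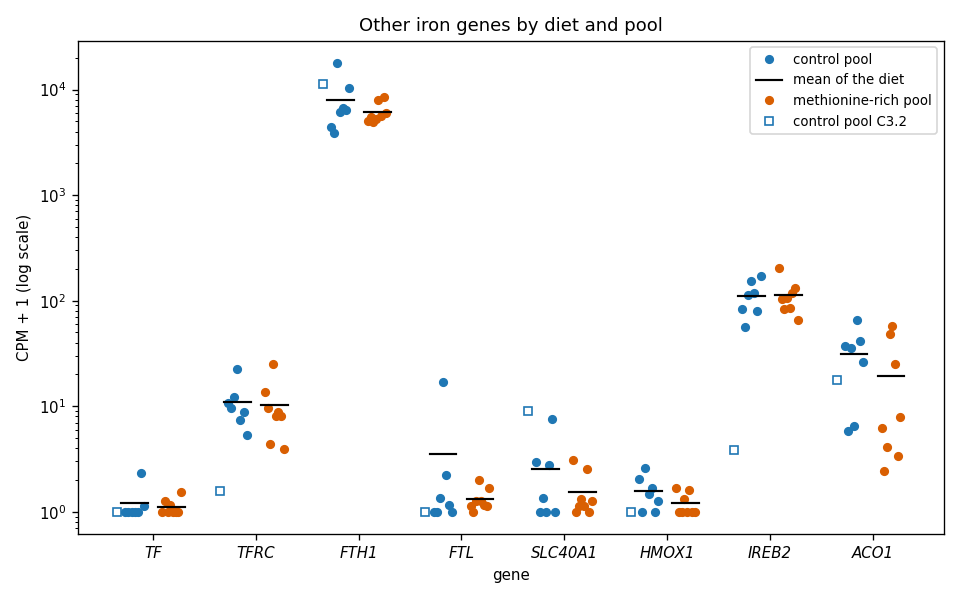
CPM + 1 on a log axis (y) of 8 iron genes (x) in each control (blue) and methionine-rich (orange) pool, with a line at the mean CPM of each diet and the control pool C3.2 as an open square. The diets overlap for every gene shown, FTH1 lies between 3853 and 17811 CPM, and TF, FTL, SLC40A1 and HMOX1 are near 0 in most pools.

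Of the 8 tested loci other than SLC11A1, 0 differed between diets at an FDR under 0.1 with a 2-fold change in the edgeR exact test, against 110 of 10519 loci tested (1.05%), of which 81 (0.77%) were higher in control and 29 (0.276%) in methionine-rich pools. The smallest unadjusted p among the 8 was 0.0763, for FTL, so that 0 of them had an unadjusted p under 0.05, against 898 of all tested loci (8.54%). The edgeR quasi-likelihood test also called 0 of the 8, with 0 at an unadjusted p under 0.05 and a smallest FDR of 0.669. It called 0 of the 10519 loci (0.0%), with 909 (8.64%) at an unadjusted p under 0.05. DESeq2 called 0 of the 8, and so did the exact test with C3.2 included, which called 356 loci in all (3.3%). Log2 fold changes were negative at 7 of the 8 loci and positive at 1, against 5631 negative and 4888 positive over all tested loci. The median was -0.40, against -0.05 over all tested loci, and 6 of the 8 were within 2-fold. At TFRC, FTH1, IREB2 and XLOC_016920 the negative sign turned when a single pool was left out, and that of FTL rested on C2.2. With the mean of each cow as the unit, 4 cows against 4, the two-sided exact permutation p ranged from 0.2 to 1.0 over the 8 loci. The smallest p this design allows is 0.0286. The diets overlapped, over pools and over cow means, at each of these 8 loci and at TF and HMOX1, and over pools they did not overlap at 5 of all tested loci (0.0475%).

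The members differed in their spread between pools. The coefficient of variation of CPM over the 15 pools was 36.3% for IREB2, 49.4% for FTH1, 63.0% for TFRC and 65.7% for SLC11A2 at XLOC_016919. It was 90.6% for ACO1, 119% for SLC11A2 at XLOC_016920, 126% for HMOX1, 172% for SLC40A1, 220% for TF, 288% for SLC11A1 and 299% for FTL. The median over all tested loci was 80.4%. Spread fell with level over all loci, and the medians by level were 160% for loci under 2, 83.2% from 2 to 5 and 48.0% over 5 on the scale of average log2 CPM.

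The highest pool was C2.1 for FTH1 and HMOX1, C3.1 for SLC11A1 and ACO1, C4.1 for TF and SLC40A1, and M5.1 for IREB2 and XLOC_016920. It was C2.2 for FTL, M6.1 for XLOC_016919 and M6.2 for TFRC. Within a cow, the median absolute log2 difference between its pools, in log2(CPM + 1), was 2.26 for SLC11A2 at XLOC_016920, 1.42 at XLOC_016919, 1.35 for ACO1, 0.73 for TFRC, 0.56 for IREB2 and 0.48 for FTH1 over 7 cows, and 0.80 over all tested loci.

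Beyond these genes, a list of further iron genes covered uptake and reduction, mitochondrial transport, storage, systemic control, regulation, heme synthesis and handling, and iron-sulfur cluster assembly. It held 80 symbols at 82 loci, of which 58 were tested, and 0 were called by the edgeR exact test or the quasi-likelihood test. Of the 58, 2 had an unadjusted exact p under 0.05 and 3 an unadjusted quasi-likelihood p under 0.05, against 8.54% and 8.64% of all tested loci. Log2 fold changes were negative at 23 loci and positive at 35, against 5631 and 4888 over all tested loci. The median of the list was 0.13, against -0.05 over all tested loci, and 82.8% were within 2-fold, against 75.3%.

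Among the 3 genes of the list with the smallest p towards higher levels in methionine-rich pools were SLC39A8 and LYRM4. SLC39A8, a divalent metal importer of the ZIP family, had 43.3 ± 16.4 CPM (SD, n = 7) in control and 80.2 ± 43.1 CPM (SD, n = 8) in methionine-rich pools, a log2 fold change of 0.89 (edgeR exact test, FDR = 0.498). LYRM4, a partner of the cysteine desulfurase NFS1 in iron-sulfur cluster assembly, had 10.5 ± 4.14 and 18.5 ± 4.96 CPM, with a log2 fold change of 0.80 (edgeR exact test, FDR = 0.799). None of the 3 passed the test.

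Towards higher levels in control pools the 3 with the smallest p were NUBP1, CUBN and CUL1. NUBP1, a scaffold for cytosolic iron-sulfur clusters, had 3.40 ± 4.00 CPM (SD, n = 7) in control and 0.429 ± 0.476 CPM (SD, n = 8) in methionine-rich pools, a log2 fold change of -2.94 (edgeR exact test, FDR = 0.454) and of -2.18 without C4.1. CUBN, the receptor cubilin, which can take up transferrin, was at 5.27 ± 8.97 and 1.08 ± 1.49 CPM (edgeR exact test, log2 fold change -2.35, FDR = 0.830), with log2 fold changes of -1.55 without C2.2, -1.62 without C4.1 and -0.30 by limma voom. CUL1, a subunit of the ubiquitin ligase that degrades IREB2, was at 46.1 ± 32.2 and 31.2 ± 15.9 CPM (edgeR exact test, log2 fold change -0.57, FDR = 0.919). These also missed the threshold.

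By function, 6 of 8 tested heme synthesis loci and 17 of 25 iron-sulfur cluster loci had positive log2 fold changes, against 4888 of all 10519 tested loci. The group medians were 0.47 and 0.13, and 0 of either group were called. NARFL of the iron-sulfur group was at 0.71, with 41.45% of its counts in M8.2. DESeq2, which replaced its 412 counts there by 32, gave -0.63. Median log2 fold changes were -0.05 for uptake and reduction (6 loci), 0.14 for mitochondrial transport (4), 0.12 for storage and release (5), 0.18 for regulation (4) and -0.11 for heme handling (5). Of the 7 loci for export and systemic control 1 was tested, BMP6, at -1.97 (edgeR exact test, FDR = 0.926). Pool C1.2 held 72.8% of its counts, and DESeq2, which replaced the 236 counts of that pool by 1, gave 3.07. HFE and TMPRSS6 of that group had no count in the 15 pools, as had CYBRD1, LCN2 and STEAP1 for uptake and FTMT, the mitochondrial ferritin. Of the genes that act directly beside the members, STEAP3, the endosomal ferrireductase, was at 116 ± 57.6 and 114 ± 40.6 CPM, and NCOA4, which delivers ferritin for breakdown, at 110 ± 60.8 and 119 ± 44.7 CPM in control and methionine-rich pools.

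**Figure D4:**
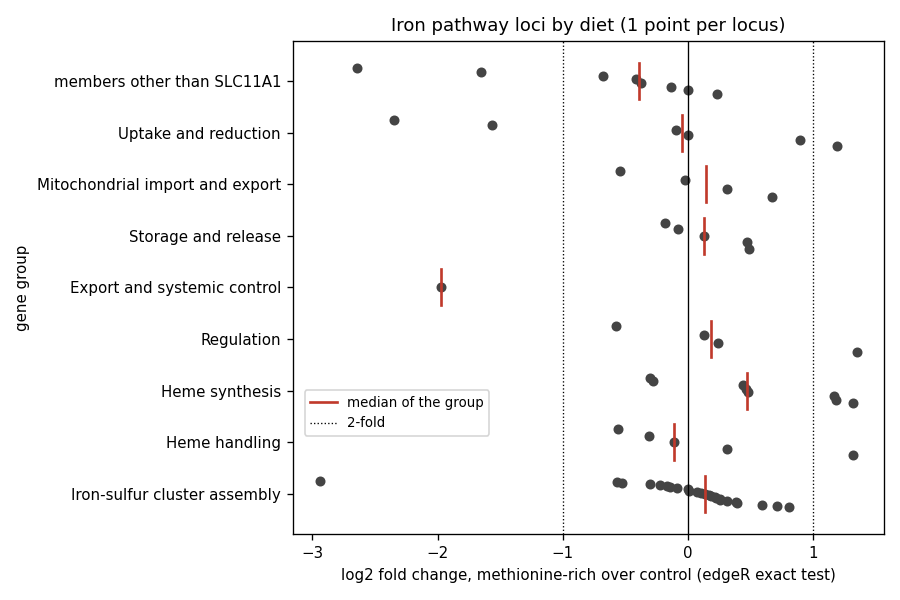
Log2 fold change, methionine-rich over control, from the edgeR exact test (x axis) for the 8 tested iron loci other than SLC11A1 and the 58 tested loci of the wider iron list, 1 point per locus by group (y axis), with red bars at group medians and dotted lines at 2-fold. Most points lie within 2-fold of 0, the group medians run from -0.40 for the members to 0.47 for heme synthesis apart from the single export locus, BMP6 at -1.97, whose counts lie mostly in C1.2, and none of the loci shown passed the test.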

How the data were processed

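The authors amplified and sequenced RNA of 16 pools of bovine blastocysts. They aligned single-end reads to bosTau7 (TopHat 2.0.4), built transcript models (Cufflinks 2.0.2) and tallied reads for each gene by htseq-count, in its intersection-nonempty mode, whose strand setting is not given in the sources used here. The deposited values are whole-number counts without normalization, 22552 rows per pool. Of the 22358 loci, 182 were listed under several names, in 376 rows, and each was entered once. The 10 genes, the wider iron list and the marker lists were chosen with earlier results of these data known.

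Loci whose CPM over the 15 tested pools summed to 15 or more (10519) were compared between diets in edgeR 4.0.16 (R 4.3.3) with TMM normalization and the exact test, as in the study, with Benjamini-Hochberg adjustment (FDR) over all of them. A locus was called at an FDR under 0.1 and at least 2-fold. Log2 fold changes carry a prior count of 0.125. The common dispersion was 1.14. Alternatives were the edgeR quasi-likelihood test, DESeq2 1.42.0, and limma 3.58.1 voom with the cow as random effect. Further alternatives were other filters and scalings, pools or cows left out, and an exact permutation test. The permutation test ran over the 70 assignments of cow means of log2(CPM + 1). Scripts were tested on simulated data. Of the wider list the text names every called gene and the 3 with the smallest p in each direction, and of the markers the 3 highest per list in C3.1, and those at 0, except that some of these genes are not reported here; LAPTM5, TYROBP, PNKD, STEAP3, NCOA4, BMP6 and the loci without counts were named after their values were seen. MELTF, HEPH, HJV, PGRMC1, FDX2, CIAO2A, CIAO2B, CIAO3 and NDOR1 were not read under these symbols, some being newer names of listed genes. No pair of pools agreed within sampling noise (smallest chi-square per degree of freedom 70.6). The gene order of RefSeq (ARS-UCD2.0) was used for neighbours only.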

Additional observations from a re-analysis of the deposited data

Results flagged for a closer look

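In 7 of 21 groups of pools examined for the members, the highest pool lay farther from the others than Dixon's 95% critical value allows, where chance gives about 1 in 20 for normal values. Over all tested loci 28.6% of such groups (5978 of 20880) did so, and SLC11A1 had been chosen for its control counts. In control pools these were SLC11A1 in C3.1 (39.2 CPM), TFRC in C2.2 (21.7 CPM), FTL in C2.2 (15.9 CPM), SLC40A1 in C4.1 (6.59 CPM) and TF in C4.1 (1.32 CPM, 8 counts). In methionine-rich pools they were SLC11A2 at XLOC_016919 in M6.1 (53.8 CPM) and TFRC in M6.2 (24.1 CPM). C2.2 and C4.1 were thus each highest for a pair of the members, and M6.1 and M6.2 are the pools of 1 cow. In C3.2, the pool outside the tests, SLC40A1 had 8.02 CPM from 14 counts, above the 7 other control pools, while TFRC, IREB2 and SLC11A2 at XLOC_016919 had 1, 5 and 1 counts there.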

How the results depend on the processing

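The iron loci other than SLC11A1 had 0 calls under the 12 alternatives and the 23 repeats that left out a pool or a cow, with FDR from 0.455 to 1.0. Of the 12, 4 called no locus at all and so could not differ, and FTL and SLC40A1 were tested in 10. The wider list had 0 calls except with all 16 pools, where 2 were called. The 110 calls over all loci became 0 with the quasi-likelihood test, 0 with voom, 0 with pool number as a replicate block, 0 with the permutation of cow means, 67 with DESeq2, 55 without the filter, 6 with at least 1 CPM in 7 or more pools and 356 (3.3% of 10803) with all 16 pools. Leaving out a pool or cow gave 62 to 153 calls, with 64 without C2.1, 71 without M5.2, 66 without cow 7 and 62 without cow 8. Pools with the same number were no more alike than others (mean correlation -0.0076 for 28 pairs with the same number and 0.0076 for 28 with different numbers). In the same comparison the 7 pairs of pools from 1 cow had a mean correlation of -0.105, from -0.218 to -0.0070. Whether pool number goes with the sequencing lane is not known, as the lanes are not given. The replicate block turned SLC11A2 at XLOC_016920 to 0.38. Signs also turned, with no call, for TFRC with all 16 pools (0.031). With DESeq2 they turned for FTL, BMP6 and NARFL (0.17, 3.07 and -0.63, each with its highest pool replaced) and for STEAP3 (0.015). The sign of IREB2 turned with DESeq2 (0.0056), voom (0.012), RLE scaling (0.0056) and no TMM (0.018). It also turned with no filter (0.017), the stricter filter (0.0030), 16 pools (0.19) and cow means (0.0071). Leaving out a pool or cow gave log2 fold changes of -0.49 to 0.23 for TFRC, -0.060 to 0.54 and -1.26 to 0.13 for XLOC_016919 and XLOC_016920, -0.60 to 0.033 for FTH1, -0.16 to 0.11 for IREB2 and, without a change of sign, -1.53 to -0.32 for ACO1. SLC40A1 stayed above the filter in 7 of these repeats and FTL in 21. The control mean of SLC11A1 ran from 2.20 CPM without C3.1 to 8.73 CPM. The cause of the other changes was not tested, and with about 3 counts as the floor TF, HMOX1, FTL and SLC40A1 give no firm difference at this depth.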

Other observations

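BACH1, a repressor of HMOX1 and ferritin genes that is relieved by heme, had 2355 counts in C3.2, the pool outside the tests, 0 to 5 in the 7 other control pools and 0 to 2 in the methionine-rich pools. CUBN had 250 counts there, 135 in C2.2 and 94 in C4.1. These are the 2 genes of the wider list that were called when all 16 pools were compared. HMOX1 had no count in C3.2, but the floor of 3 counts was 1.72 CPM there, above the level of HMOX1 in every other pool. This 0 therefore cannot show a lower level. FTH1 had 11377 CPM in C3.2, more than in any other pool except C2.1. The study found that few reads of C3.2 lay on exons and names a library error as possible. Whether BACH1 acted on these genes was not tested.

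With the cow mean of log2(CPM + 1) as the unit, 3 of the 58 tested loci of the wider list (5.17%) reached the smallest exact permutation p, 0.0286. Over all tested loci 241 of 10519 (2.29%) reached it, and the smallest adjusted value was 1.0. All 3 loci of the list had higher means in the methionine-rich cows, as had 135 of the 241. Among the 3 were PPOX of heme synthesis and ISCA1 of iron-sulfur cluster assembly. PPOX had 5.49 ± 2.89 and 7.51 ± 3.95 CPM and ISCA1 178 ± 27.6 and 234 ± 48.6 CPM (SD, n = 7 and 8) in control and methionine-rich pools. In CPM without the log2 the cow means of PPOX overlapped between the diets.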
